A study of Rattus norvegicus with 9 samples.

Results

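Heat shock and unfolded protein response genes were described in the livers of male Goto-Kakizaki (GK) rats, a strain with spontaneous diabetes, after chronic unpredictable mild stress (CUMS). A list of 43 genes was taken, in 6 groups, and each gene was read from the probe set that names it alone and has the highest mean signal over the 9 arrays. Such a probe set was found for 39 of the 43 genes, out of 14217 genes on the array, and all 39 passed the filter on low signals. Hspa1b, Hspa8, Hsp90aa1 and Ern1 had no probe set of their own and were not analysed here.

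The stressed rats were CUMS 1–3, labelled as major depression, and CUMS 4–6, labelled as mild depression, with 3 livers in each group. They had been caged alone and had met one stressor a day, in random order, for 8 weeks. The stressors included restraint, swims in hot and in cold water, tail clipping, cage tilting and shaking, damp bedding, noise and inverted light. The third group was control 1–3, unstressed GK rats, also 3 livers. All rats, controls included, were diabetic and received repaglinide, an oral glucose-lowering drug, by gavage with repeated blood sampling before the livers were taken. The time between the last stressor and liver collection is not given in the sources used here, and neither is the basis on which the labels separate major from mild depression. Each liver was measured once on an Affymetrix rat expression array. The spread between arrays therefore holds differences between rats together with those of tissue handling, RNA quality and measurement. These cannot be told apart, and p-values measure only the spread between arrays.

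Cells meet misfolded proteins with several linked programmes. In the cytosol, the factor HSF1 induces the heat shock chaperones, of the HSP70, HSP90, HSP110, DNAJ and small heat shock protein families. In the endoplasmic reticulum (ER), the sensors ATF6, IRE1 (gene Ern1) and PERK start the unfolded protein response, in which ATF6 and XBP1 raise ER chaperones and degradation factors and PERK acts through ATF4. The hepatocyte secretes most plasma proteins and carries a large rough ER, so ER chaperones are abundant in liver. Glucocorticoids, heat and amino acid supply are all known to act on parts of these programmes.

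Many, but not all, promoters of the listed genes carry the marks of these programmes. Among those that do, 4 are shown because their genes stand for the branches described here. The sequences are from RefSeq on the GRCr8 assembly, from 250 bases before to 50 bases after the gene start, written 5′ to 3′ on the strand of the gene, and 34 of the 43 genes were matched by symbol. Capitals mark the motif matches. Hsph1 (chr12:10427118-10427417, plus strand) shows a heat shock element (HSE), Hspa5 (chr3:38452766-38453065, plus strand) and Calr (chr19:40213117-40213416, plus strand) show an ER stress response element (ERSE), and Herpud1 (chr19:10614658-10614957, minus strand) shows, in this order, an element of ATF4 targets (CARE) and an ERSE-II.
Hsph1: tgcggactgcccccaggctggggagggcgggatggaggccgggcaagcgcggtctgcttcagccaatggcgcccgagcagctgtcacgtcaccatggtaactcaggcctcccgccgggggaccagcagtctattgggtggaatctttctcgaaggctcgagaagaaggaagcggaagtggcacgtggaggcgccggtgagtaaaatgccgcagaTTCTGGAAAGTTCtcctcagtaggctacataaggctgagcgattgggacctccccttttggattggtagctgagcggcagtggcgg
Hspa5: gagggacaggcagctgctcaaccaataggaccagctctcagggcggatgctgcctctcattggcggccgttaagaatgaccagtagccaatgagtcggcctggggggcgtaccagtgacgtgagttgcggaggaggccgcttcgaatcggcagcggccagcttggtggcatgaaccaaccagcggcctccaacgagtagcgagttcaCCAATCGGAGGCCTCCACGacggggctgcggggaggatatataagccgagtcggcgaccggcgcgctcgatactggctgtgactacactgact
Calr: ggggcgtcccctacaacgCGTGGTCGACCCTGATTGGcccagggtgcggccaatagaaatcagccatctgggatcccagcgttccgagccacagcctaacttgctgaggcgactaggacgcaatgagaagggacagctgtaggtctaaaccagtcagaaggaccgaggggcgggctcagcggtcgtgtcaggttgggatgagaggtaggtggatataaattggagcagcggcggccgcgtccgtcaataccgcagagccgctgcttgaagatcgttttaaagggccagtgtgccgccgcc
Herpud1: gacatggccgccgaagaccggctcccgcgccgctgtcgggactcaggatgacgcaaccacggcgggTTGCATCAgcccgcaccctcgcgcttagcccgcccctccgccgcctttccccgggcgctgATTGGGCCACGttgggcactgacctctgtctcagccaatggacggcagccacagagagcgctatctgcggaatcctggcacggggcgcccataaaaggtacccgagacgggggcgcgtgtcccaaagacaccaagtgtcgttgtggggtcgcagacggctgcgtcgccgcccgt

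The HSE was searched as GAANNTTC, which reads the same on both strands, where N is any base. It was found in 7 of the 9 promoters of cytosolic heat shock genes, those of Hspa8, Hsph1, Dnajb1, Dnaja1, Hspb1, Hspb8 and Bag3, and in all 3 of the mitochondrial chaperones, against 8.59% of the 33469 promoters of the table. An extended HSE adds a further unit of the repeat on either side and always overlaps the shorter one. It was found in Hspa8, Hsph1, Dnaja1, Hspd1 and Hspe1, against 0.798% of all promoters. The windows of Hspd1 and Hspe1 overlap on opposite strands, and their HSE matches are the same site, read from either strand. The ERSE was searched on both strands as CCAAT and CCACG with 9 bases between them. It was found in 6 of the 11 ER chaperone promoters, those of Hspa5, Hsp90b1, Calr, Canx, Dnajc3 and Creld2, and in that of Xbp1, against 0.0657% of all promoters. The ERSE-II, ATTGG and CCACG with 1 base between them on either strand, was found in Hyou1 and Herpud1, against 0.0508% of all promoters. The CARE was searched as TGATGNAA on both strands. It was found in 2 of the 6 promoters of ATF4 and its targets, those of Trib3 and Chac1. It was also found in Herpud1 and Hspa9, against 3.98% of all promoters. A match describes the letters of the window and does not show that a factor binds there in these livers.

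**Figure D1:**
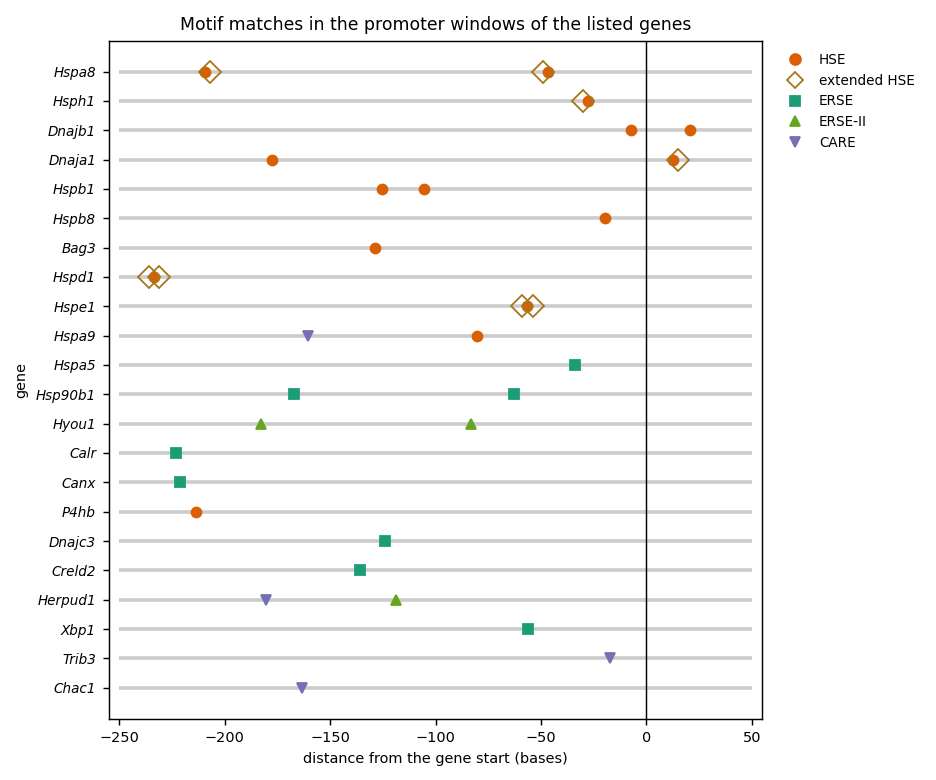
Positions of the motif matches in the 22 promoter windows that hold at least 1 match. The x axis gives the distance from the gene start in bases, each row is a gene, and symbols mark the kind of motif. Heat shock elements stand in the upper rows, of cytosolic and mitochondrial chaperones, and P4hb is the ER chaperone with one. The ERSE and ERSE-II matches stand in ER chaperones, Herpud1 and Xbp1.

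No member was called in any of the 4 comparisons of the groups. The deposited values are MAS 5.0 signals on a linear scale, the groups were compared on log2 signals with limma, and calls were made below an adjusted p of 0.05 (Benjamini-Hochberg, over the 18625 probe sets that passed the filter). The call rate over all probe sets was 0.0% in each comparison, so that 0 calls among the members is also the background. At an unadjusted p under 0.05, 5 of the 39 members (12.8%) differed between CUMS 1–3 and control, 2 with a higher and 3 with a lower signal, against 7.81% of the 10403 genes tested. Between CUMS 4–6 and control, 4 members (10.3%) passed that limit, all with a higher signal, against 7.37% of genes. Between all 6 CUMS rats and control there were 4 members (3 higher, 1 lower), against 9.61% of genes. Between CUMS 1–3 and CUMS 4–6 there was 1, Calr, against 2.4% of genes. Set against these shares, the counts are not a result about the members. They moved with single rats: the count for CUMS 1–3 against control was 0 without CUMS 3, that for CUMS 4–6 against control was 1 without CUMS 6, and that for all CUMS rats was 1 without CUMS 3 and 7 without control 2. Read from the probe set chosen for each gene, no member differed by more than 1.5-fold in any comparison. Dimmer further probe sets of Hsph1, Hyou1 and Atf6 passed that limit. The 3 comparisons with control share the same control rats.

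The groups did not overlap in 2 members for CUMS 1–3 and control, against 12.3% of genes, and in 4 members for CUMS 4–6 and control, against 13.3%. One member, Pdia6, separated all 6 CUMS rats from the controls, against 4.39% of genes, and 4 members separated CUMS 1–3 from CUMS 4–6, against 9.39%. The median log2 difference over the 39 members was 0.02 for CUMS 1–3 minus control, against −0.02 over all genes, and 0.05 for CUMS 4–6 minus control, against −0.02. Rats of one group differed in the members about as much as in other genes, with a median SD within groups of 0.22 on the log2 scale for the members and 0.22 for all genes. Sel1l varied least (SD 0.07) and Asns most (SD 0.47).

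**Figure D2:**
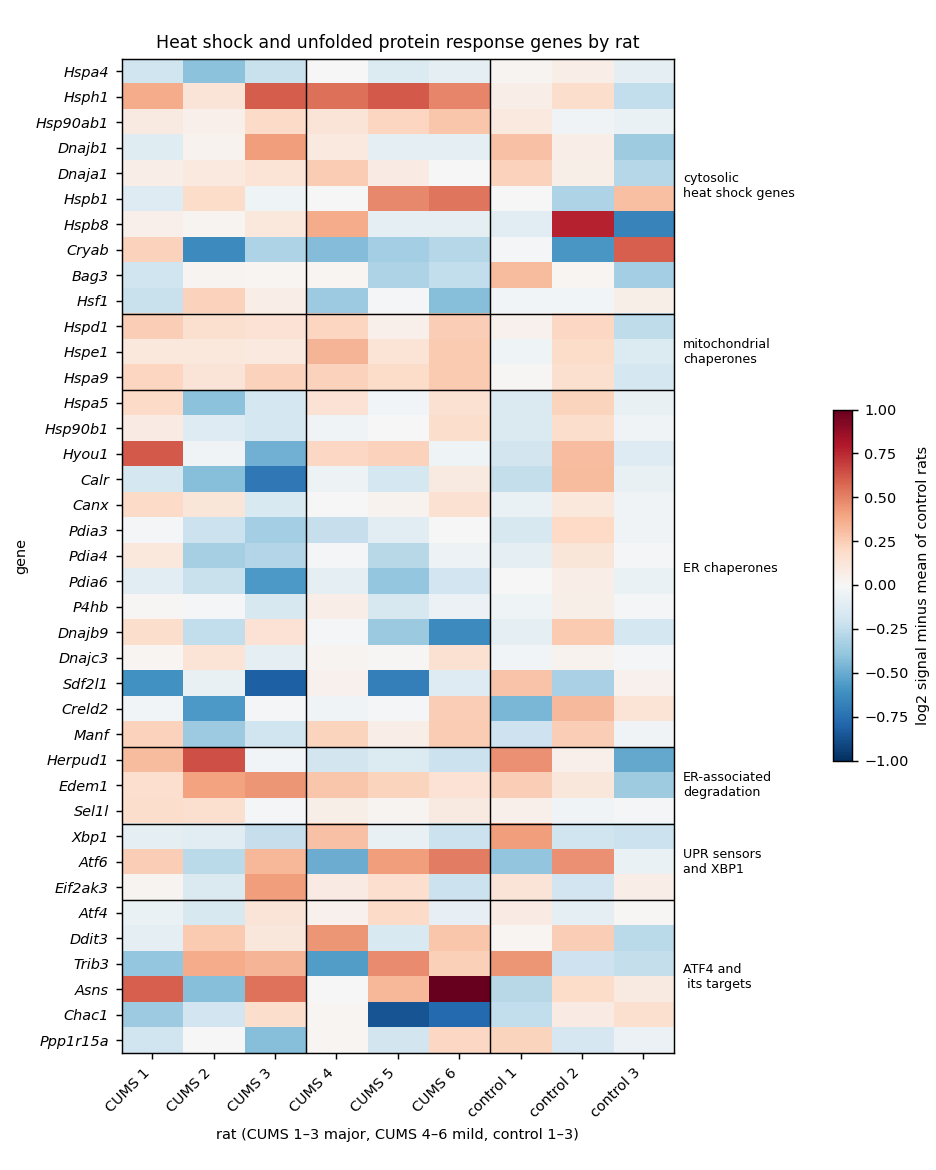
Log2 signal of the 39 genes in each rat minus the mean of the control rats, with genes in rows by group and rats in columns. Red is higher and blue is lower than the control mean, and the colour scale ends at 1 in both directions. Hsph1 is red in all 6 CUMS rats, ER chaperones are mostly blue in CUMS 2 and CUMS 3 and mostly red in control 2, and most heat shock genes and all mitochondrial chaperones are blue in control 3.

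Some arrays stood apart before any group was compared. Control 3 lay far from the other 8 on the first principal component (60.5 in control 3, and −21.9 to 2.8 in the others). The summed signal of 12 stellate cell and fibroblast markers was 4881 to 5744 in CUMS 1–3, 6346 to 8059 in CUMS 4–6, 8317 and 8377 in control 1 and control 2, and 34676 in control 3. Bile duct markers summed to 648 to 1119 in CUMS 1–3, 845 to 1040.4 in CUMS 4–6, 1062 and 970.02 in control 1 and control 2, and 9007 in control 3. Hepatocyte markers, 8 of 8 measured above the filter, were lowest in control 3 (165546) and CUMS 3 (171783) and lay between 195970 and 217351 in the other 7 rats. The 3′ to 5′ ratio of β-actin, a sign of RNA quality, was 5.23 in CUMS 2 and 4.96 in CUMS 4, against 2.51 to 3.73 in the rest. Several of the values that rest on these rats are also given without them. In whole liver, fewer cells of a type and less RNA per cell cannot be told apart.

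The 10 measured cytosolic heat shock genes were divided in direction. Their median log2 difference was 0.04 for CUMS 1–3 minus control (7 higher, 3 lower) and 0.02 for CUMS 4–6 minus control (5 higher, 5 lower). Control 3 had the lowest signal of the 9 rats in 6 of the 10 genes. Without control 3 the medians were 0.01 and −0.09, and with array weights −0.01 and −0.13. The part of this rat's array quality or cell content in these values was not tested beyond leaving it out.

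Hsph1, an HSP110 that recharges HSP70 and whose promoter holds the extended HSE printed above, had the smallest p of all members in both the mild and the pooled comparison. Its signal was 2939, 2477 and 3457 in CUMS 1–3, 3331, 3468 and 3185 in CUMS 4–6, and 2378, 2565 and 1917 in control 1–3. All CUMS 4–6 livers lay above all controls, and CUMS 2 was the only CUMS liver below any control. The log2 difference from control was 0.37 ± 0.14 (SE) for CUMS 1–3, 0.55 ± 0.14 for CUMS 4–6 and 0.46 ± 0.12 for all CUMS rats, with limma adjusted p of 0.733, 0.744 and 0.467. A second probe set of Hsph1 gave 0.43 and 0.59 for CUMS 1–3 and CUMS 4–6 minus control. Without control 3 the differences of the first probe set were 0.25 and 0.43.

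Hspa4, another HSP110 family member, had the opposite sign in CUMS 1–3. Its signal was 697, 602 and 685 in CUMS 1–3, 798, 727 and 748 in CUMS 4–6, and 817, 836 and 749 in control 1–3. All CUMS 1–3 livers lay below all others, with log2 differences of −0.28 ± 0.12 (SE) from control and −0.20 ± 0.12 from CUMS 4–6 (limma adjusted p = 0.737 and 0.9996). Hsp90ab1, the constitutive cytosolic HSP90, was measured at 8242, 8024 and 8867 in CUMS 1–3, 8504, 8985 and 9423 in CUMS 4–6, and 8321, 7585 and 7405 in control 1–3. The CUMS 4–6 livers were all above the controls by a small margin, 0.21 ± 0.09 (SE) on the log2 scale (limma adjusted p = 0.778). A second probe set of Hsp90ab1 gave 0.27 and 0.17 for CUMS 1–3 and CUMS 4–6 minus control. In it CUMS 4 (4187) lay inside the range of the controls (4147 to 6055), so the CUMS 4–6 livers were not all above them.

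Unlike Hsph1 for CUMS 4–6 against control, Dnajb1, Hsf1 and Hspb1 did not separate the groups. Hspa1b, Hspa8 and Hsp90aa1, further readouts of this branch, had no probe set of their own. Dnajb1, an HSP40 co-chaperone and a sensitive HSF1 target, had signals of 1385, 1544 and 2019.6 in CUMS 1–3, 1619, 1419 and 1413 in CUMS 4–6, and 1845, 1577 and 1181 in control 1–3. The groups overlapped fully, with differences from control of 0.11 ± 0.18 (SE) and −0.03 ± 0.18 for CUMS 1–3 and CUMS 4–6. Hsf1 itself was at 244, 333 and 298 in CUMS 1–3, 222, 280.4 and 212 in CUMS 4–6, and 279, 279 and 296 in control 1–3. The 95% interval of its difference from control was −0.37 to 0.42 in CUMS 1–3 and −0.66 to 0.13 in CUMS 4–6. Hspb1, a small heat shock protein, had signals of 645, 799 and 684 in CUMS 1–3, 703, 982 and 1019 in CUMS 4–6, and 708, 571 and 867 in control 1–3, and its 2 highest values were in CUMS 5 and CUMS 6. Hspb8, Cryab, Bag3 and Dnaja1, small heat shock proteins and co-chaperones, differed from control by −0.35 to 0.11, and Hspb8 and Cryab were spread widely within the control rats (1323 to 3591 and 122 to 277).

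The 6 measured cytosolic genes with an HSE in the promoter window were Hsph1, Dnajb1, Dnaja1, Hspb1, Hspb8 and Bag3. Their differences from control ran between −0.05 and 0.37 in CUMS 1–3 and between −0.18 and 0.55 in CUMS 4–6. The mitochondrial chaperones and P4hb, which also hold an HSE, are given with their own groups. Hsph1 gave the upper end of both ranges.

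The mitochondrial chaperones had slightly higher mean signals in both CUMS groups than in control. Hspd1 and Hspe1 form the folding chamber of the matrix, and Hspa9 is the mitochondrial HSP70. Hspa9 was at 5843, 5512 and 5907 in CUMS 1–3, 5910.3, 5703 and 6022 in CUMS 4–6, and 5067, 5629 and 4456 in control 1–3. All CUMS 4–6 livers and 2 of the CUMS 1–3 livers lay above all controls. Its differences from control were 0.19 ± 0.10 (SE) and 0.23 ± 0.10 (limma adjusted p = 0.763 and 0.779).

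Hspe1 had signals of 11260.0, 11254 and 11206 in CUMS 1–3, 13254, 11510.0 and 12594 in CUMS 4–6, and 10151, 11916 and 9509 in control 1–3. The 3 CUMS 1–3 values were nearly equal and lay below all CUMS 4–6 values. Hspd1 was at 12402, 11657 and 11547 in CUMS 1–3, 12103, 10831 and 12386 in CUMS 4–6, and 10743, 12071 and 8778 in control 1–3, so the groups overlapped. All 3 genes had their lowest value of the 9 rats in control 3, and their values in control 2 lay inside the range of the CUMS rats. Without control 3 the median difference of the 3 genes was 0.06 for CUMS 1–3 and 0.14 for CUMS 4–6, against 0.18 and 0.23 with it, still with all 3 higher. All 3 were also higher than control in both CUMS groups after quantile normalization, median centring and array weighting.

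The 14 ER chaperones had mostly lower signals in CUMS 1–3. Against control, 10 of the 14 were lower and 4 higher (median −0.12), and 1 of them, Pdia6, did not overlap. Against CUMS 4–6, 13 of the 14 were lower (median −0.09), Dnajb9 being the one that was higher. Without CUMS 3, 8 of the 14 were higher and 6 lower in this comparison (median 0.00). Between CUMS 4–6 and control, 7 genes lay on each side (median 0.00). The split moved with the scaling of the arrays: after quantile normalization 12, 11 and 11 of the 14 genes were lower for CUMS 1–3 against control, CUMS 1–3 against CUMS 4–6 and CUMS 4–6 against control, and after median centring 10, 13 and 5. The group rested on few rats: CUMS 3 had the lowest signal of all 9 rats in 8 of the 14 genes and CUMS 2 in 4, while control 2 had the highest in 8. The mean over the 14 genes, relative to the control mean, was 0.05, −0.20 and −0.29 in CUMS 1–3, 0.02, −0.13 and 0.01 in CUMS 4–6, and −0.11, 0.15 and −0.04 in control 1–3 on the log2 scale. CUMS 1 thus lay above control 1 and control 3, and the groups overlapped.

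Leaving out single rats moved the group's median in the comparison with control too. The median for CUMS 1–3 minus control was −0.28 without CUMS 1, −0.04 without CUMS 2, −0.09 without CUMS 3 and −0.02 without control 2. CUMS 2 was the rat with the highest 3′ to 5′ ratio, and CUMS 3 had low hepatocyte markers, as given above. Their part in the result was not tested beyond these values. Plasma cells, which are rich in ER chaperones, had marker sums of 3551 to 4097 in CUMS 1–3, 3031 to 4323 in CUMS 4–6 and 3586 to 4414 in control, which overlap.

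**Figure D3:**
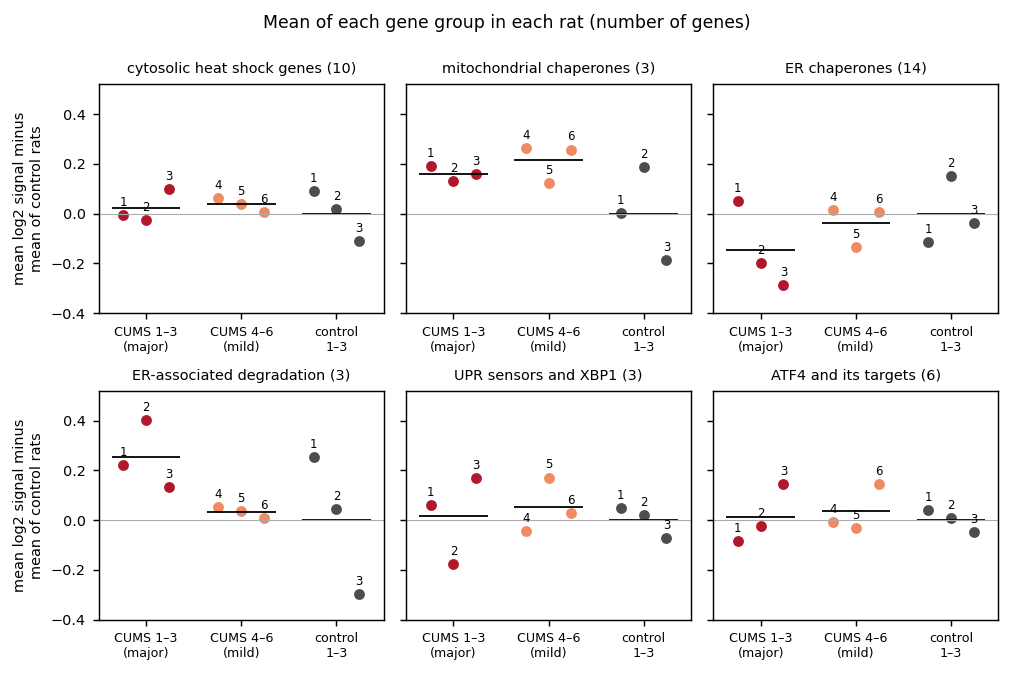
Mean log2 signal of each gene group in each rat minus the mean of the control rats, with the group mean as a line and the rat's number above each point. CUMS 2 and CUMS 3 lie lowest and control 2 highest for the ER chaperones, and control 3 lies lowest for the cytosolic, mitochondrial and ER-associated degradation genes.

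Calr, a lectin-like chaperone that binds calcium and glycoproteins, had the smallest p of the members in the comparison of CUMS 1–3 with control. Its signal was 4346, 3654 and 2996 in CUMS 1–3, 4751, 4350.1 and 5219 in CUMS 4–6, and 4160.2, 6116 and 4665 in control 1–3. All CUMS 1–3 values lay below all CUMS 4–6 values, by a narrow margin between CUMS 1 and CUMS 5, whereas CUMS 1 lay above control 1. The log2 differences were −0.44 ± 0.17 (SE) from control and −0.39 ± 0.17 from CUMS 4–6 (limma adjusted p = 0.732 and 0.9996). CUMS 3 held the lowest Calr signal of all rats and control 2 the highest. Without CUMS 3, neither Calr nor any other member had a limma unadjusted p under 0.05 for CUMS 1–3 against control.

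Pdia6, a protein disulfide isomerase, was the only member below all controls in all 6 CUMS rats. Its signal was 7643, 7101 and 5564 in CUMS 1–3, 7764, 6319 and 7249 in CUMS 4–6, and 8285, 8673 and 7905 in control 1–3. The differences from control were −0.30 ± 0.13 (SE) for CUMS 1–3, −0.23 ± 0.13 for CUMS 4–6 and −0.26 ± 0.11 for all CUMS rats (limma adjusted p = 0.733, 0.81 and 0.604). Without CUMS 3, the lowest rat, the difference of CUMS 1–3 from control was −0.17. In their first probe sets, the related isomerases Pdia3, Pdia4 and P4hb also had negative differences from control in both CUMS groups. These ran from −0.19 to −0.05, with all groups overlapping. A second, dimmer Pdia3 probe set gave −0.54 for CUMS 1–3 and −0.24 for CUMS 4–6. Its CUMS 1–3 values (204 to 225) all lay below the controls (250 to 385).

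Hspa5 (BiP), the ER HSP70 and the standard readout of ER stress, did not separate the groups. It was at 13462, 8869 and 10468 in CUMS 1–3, 13071, 11587 and 13155 in CUMS 4–6, and 10668, 13787 and 11196 in control 1–3. The difference from control was −0.13 ± 0.15 (SE) in CUMS 1–3 and 0.09 ± 0.15 in CUMS 4–6, with 95% intervals of −0.47 to 0.20 and −0.24 to 0.43. Hsp90b1 (GRP94), the ER HSP90, had signals of 10511, 9076 and 8802 in CUMS 1–3, 9708, 9893 and 11227 in CUMS 4–6, and 8973, 11238 and 9691 in control 1–3. Both genes have an ERSE in the promoter window and had their highest value in control 2.

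Dnajb9, an ER co-chaperone of BiP induced through XBP1, was measured at 3433, 2555 and 3354 in CUMS 1–3, 2991, 2347 and 1952 in CUMS 4–6, and 2852, 3649 and 2692 in control 1–3. The groups overlapped, with a difference of 0.37 ± 0.18 (SE) between CUMS 1–3 and CUMS 4–6. Sdf2l1, a partner of the ER HSP40 proteins, had the largest negative difference of the members for CUMS 1–3 minus control (−0.50 ± 0.24), again with overlap. Read from their first probe sets, Hyou1, Canx, Dnajc3, Creld2 and Manf differed from control by −0.20 to 0.18. A second, dim Hyou1 probe set gave −0.14 for CUMS 1–3 and 0.65 for CUMS 4–6 minus control. Its difference between CUMS 1–3 and CUMS 4–6 was −0.79, without overlap. The third Canx probe set gave −0.16 and −0.28 for CUMS 1–3 and CUMS 4–6 minus control. Over the first probe sets of the 6 ER chaperones with an ERSE, the differences from control ran from −0.44 to 0.05 in CUMS 1–3 and from −0.05 to 0.09 in CUMS 4–6.

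**Figure D4:**
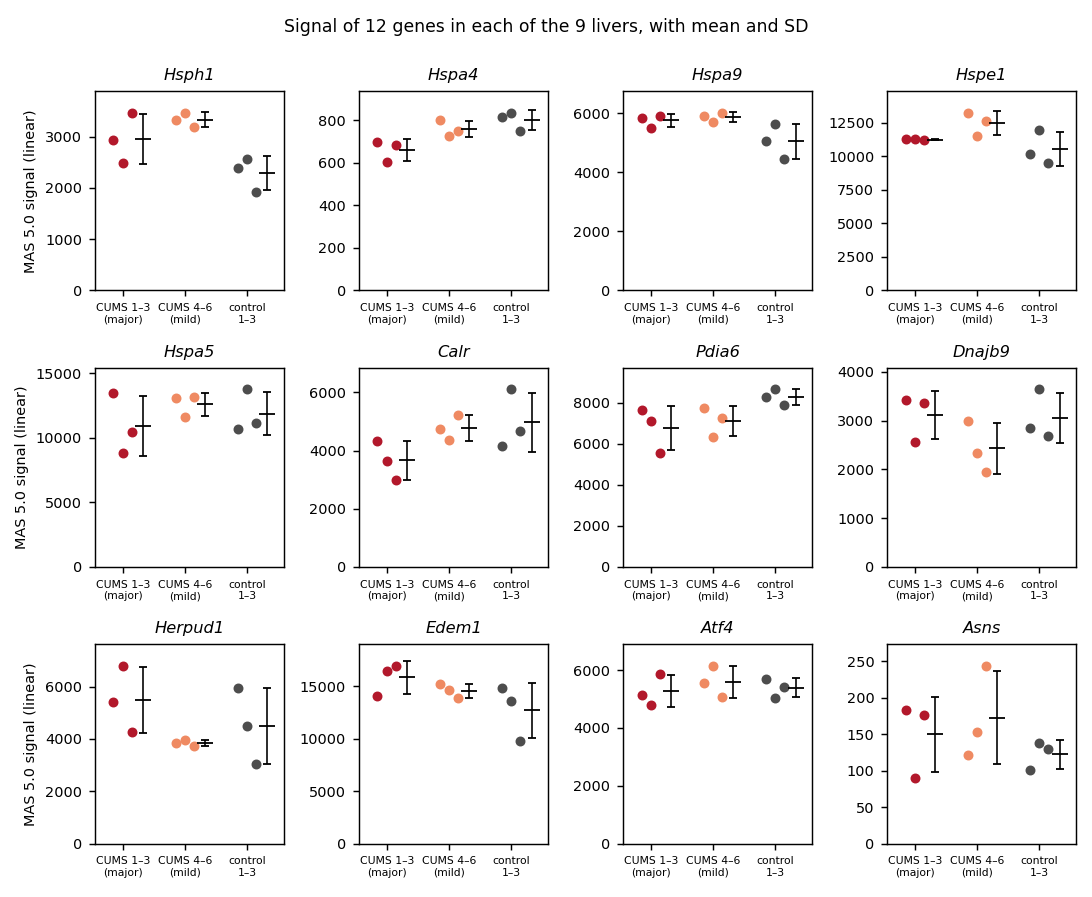
MAS 5.0 signal (linear, axis from 0) of 12 genes in each rat, with points for rats and a dash with bars for mean and SD of the 3 rats. Hsph1 lies above most controls in CUMS rats, Pdia6 lies below all controls, Calr is lowest in CUMS 1–3, and Herpud1 is higher in CUMS 1–3 than in CUMS 4–6. The groups overlap in Hspa5, Dnajb9, Edem1, Atf4 and Asns.

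The 3 listed ER-associated degradation genes had higher mean signals in CUMS 1–3, where the ER chaperones were mostly lower. All 3 were higher than in control (median 0.31) and than in CUMS 4–6 (median 0.12). The 16 other genes of ER-associated degradation that passed the filter were divided in CUMS 1–3. Of these, 9 were higher and 7 lower against control (median 0.04), and likewise against CUMS 4–6 (median 0.02). Herpud1, a membrane protein of the degradation complex, was at 5409, 6799.5 and 4247 in CUMS 1–3, 3826, 3944 and 3732 in CUMS 4–6, and 5958, 4501 and 3045 in control 1–3. All CUMS 1–3 values lay above all CUMS 4–6 values, and the controls spanned both. The difference was 0.49 ± 0.22 (SE) between CUMS 1–3 and CUMS 4–6 and 0.31 ± 0.22 between CUMS 1–3 and control (limma adjusted p = 0.9996 and 0.834). Without CUMS 2, the rat with the highest Herpud1 signal and the highest 3′ to 5′ ratio, the Herpud1 differences were 0.32 and 0.14, and the median of the 3 genes against control was 0.14.

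Edem1, which hands misfolded glycoproteins to degradation, was at 14066, 16482 and 16950.0 in CUMS 1–3, 15170.0, 14581 and 13840.0 in CUMS 4–6, and 14787, 13534 and 9742 in control 1–3. The difference from control was 0.34 ± 0.14 (SE) in CUMS 1–3 and 0.22 ± 0.14 in CUMS 4–6 (limma adjusted p = 0.737 and 0.834). Its 2 further probe sets gave 0.30 and 0.49 for CUMS 1–3 minus control. In the one with 0.49, all CUMS 1–3 values (3046 to 3078) lay above all other rats (1816 to 2721). In the other, CUMS 1–3 overlapped control. Control 3 was the lowest rat for both Herpud1 and Edem1, and without it the differences of CUMS 1–3 from control were 0.06 and 0.16. Sel1l, the scaffold of the degradation complex, differed by 0.11 and 0.06 in CUMS 1–3 and CUMS 4–6.

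Read from their first probe sets, the sensors and XBP1 had groups that overlapped. Xbp1, whose message is spliced by IRE1, was at 7543, 7456 and 6860.1 in CUMS 1–3, 9871, 7682 and 6958 in CUMS 4–6, and 10776, 7013 and 6955 in control 1–3. CUMS 4 and control 1 stood above the other 7 rats, which lay between 6860.1 and 7682. The array signal does not tell spliced from unspliced Xbp1.

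Eif2ak3 (PERK) had signals of 514, 456 and 674 in CUMS 1–3, 533, 565 and 434 in CUMS 4–6, and 550.5, 441 and 527 in control 1–3. Atf6 was at 1207, 844 and 1277 in CUMS 1–3, 720.0, 1359.6 and 1452 in CUMS 4–6, and 774, 1398 and 972 in control 1–3. Both overlapped fully, and the 95% intervals of their differences from control reached from −0.54 to 0.74 for Atf6 and from −0.30 to 0.50 for Eif2ak3 in CUMS 1–3. A second, dimmer Atf6 probe set read 123, 88.9 and 131 in CUMS 1–3, 116, 147 and 200.2 in CUMS 4–6, and 45.8, 89.9 and 98.2 in control 1–3. All CUMS 4–6 values of this probe set lay above all controls, and its differences from control were 0.61 for CUMS 1–3 and 1.03 for CUMS 4–6, against 0.10 and 0.14 with the first.

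ATF4 and its targets, the branch that answers PERK and amino acid shortage, had a median difference of 0.03 in CUMS 1–3 (3 higher, 3 lower) and 0.05 in CUMS 4–6 (5 higher, 1 lower) against control. Atf4 was at 5139.9, 4809.6 and 5884 in CUMS 1–3, 5545, 6156 and 5071 in CUMS 4–6, and 5701, 5049 and 5410.0 in control 1–3. Its 95% intervals against control were among the narrowest of this group, −0.28 to 0.21 in CUMS 1–3 and −0.19 to 0.30 in CUMS 4–6. Ddit3 (CHOP), a factor linked to cell death under lasting ER stress, was at 414, 531 and 479.6 in CUMS 1–3, 601, 399 and 539 in CUMS 4–6, and 449.7, 526 and 368 in control 1–3. The 3 groups overlapped in both genes.

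The remaining targets were dim. Trib3, Asns and Chac1 were spread widely within groups (SD 0.46, 0.47 and 0.35 on the log2 scale), and Ppp1r15a less so (SD 0.20). Trib3, a pseudokinase, was at 142, 239.9 and 235 in CUMS 1–3, 126, 258 and 218 in CUMS 4–6, and 253, 160.4 and 158 in control 1–3. Asns, which makes asparagine, was at 183, 90.0 and 176 in CUMS 1–3, 121, 153 and 244 in CUMS 4–6, and 100.3, 138 and 129 in control 1–3. Its difference from control was 0.45 ± 0.34 (SE) in CUMS 4–6, with a 95% interval of −0.30 to 1.19.

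Chac1, which breaks down glutathione, was at 238, 268 and 347 in CUMS 1–3, 310.0, 168 and 179 in CUMS 4–6, and 259, 325 and 343 in control 1–3. CUMS 5 and CUMS 6 were the lowest rats, and the difference of CUMS 4–6 from control was −0.54 ± 0.25 (SE; limma adjusted p = 0.779). Ppp1r15a (GADD34), which reverses the block on translation, was at 162, 186 and 139 in CUMS 1–3, 189, 164 and 215 in CUMS 4–6, and 217, 166 and 179 in control 1–3, with overlap between all groups.

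**Figure D5:**
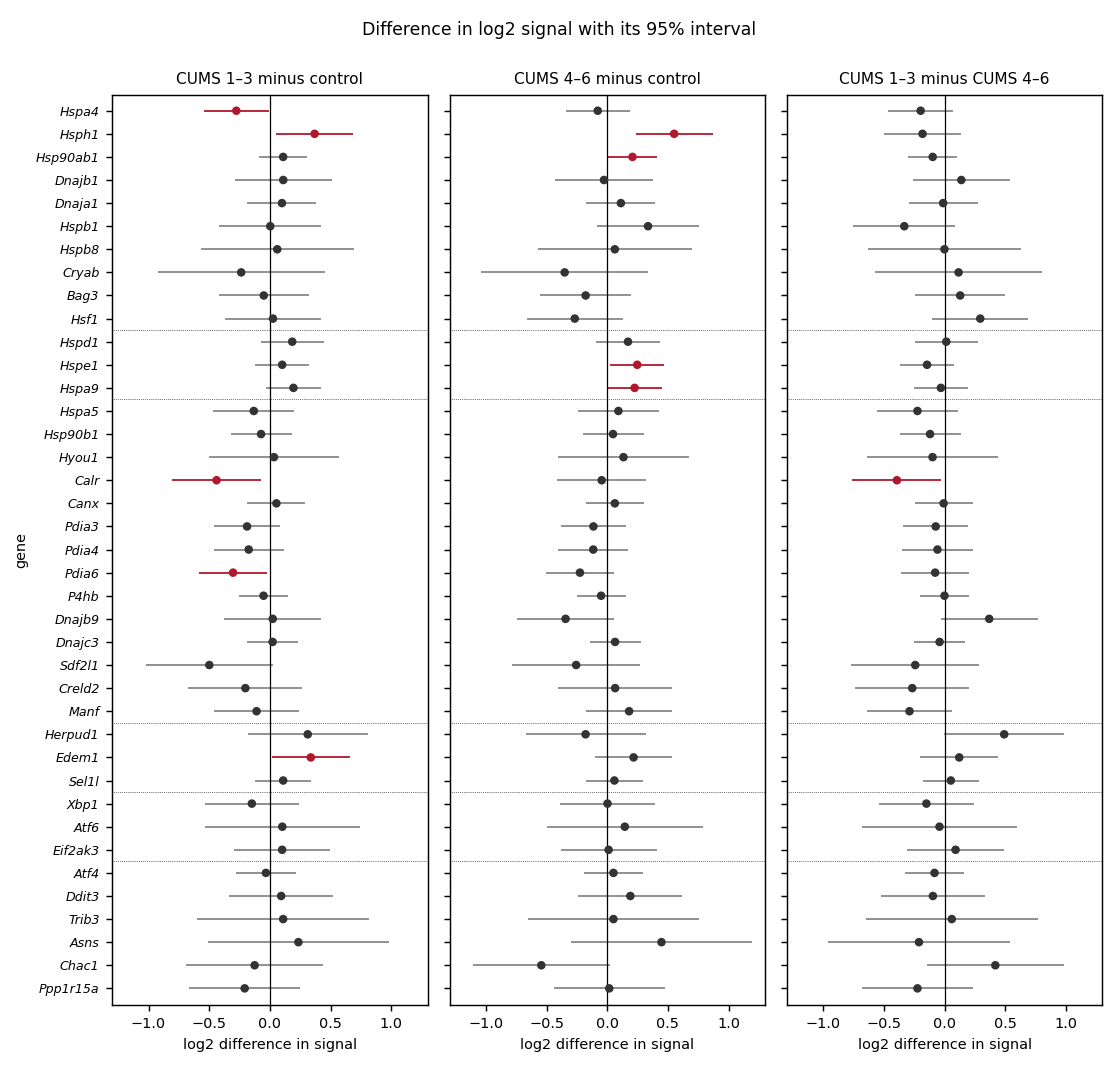
Difference in log2 signal with its 95% interval (limma) for the 39 genes in CUMS 1–3 minus control, CUMS 4–6 minus control and CUMS 1–3 minus CUMS 4–6. Red marks intervals that leave out 0, which are 5, 4 and 1 genes and carry no adjustment for the number of genes tested.

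Beyond the listed members, 136 further genes of these pathways passed the filter. None was called, and at an unadjusted p under 0.05 there were 8 for CUMS 1–3 against control (7 higher, 1 lower), 7 for CUMS 4–6 against control (5 higher, 2 lower), 12 for all CUMS rats (10 higher, 2 lower) and 5 for CUMS 1–3 against CUMS 4–6 (2 higher, 3 lower). These are 5.88%, 5.15%, 8.82% and 3.68% of the genes, beside the background shares given above.

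Among the 136 other pathway genes, the groups did not overlap in 11.0% for CUMS 1–3 and control and in 10.3% for CUMS 4–6 and control, against 12.3% and 13.3% of all genes. All 6 CUMS rats were separated from the controls in 3 of them, or 2.21%, against 4.39% of all genes. Stub1 (CHIP), a ubiquitin ligase that works with HSP70 and HSP90, was at 1204, 1107 and 1238 in CUMS 1–3, 1146, 1031 and 1188 in CUMS 4–6, and 1348, 1479 and 1469 in control 1–3. All 6 CUMS rats lay below all controls, with differences of −0.28 ± 0.11 (SE) and −0.35 ± 0.11 (limma adjusted p = 0.733 and 0.744). Trap1, the mitochondrial HSP90, was at 2363, 2425 and 2525 in CUMS 1–3, 3176, 2765 and 2557 in CUMS 4–6, and 2357, 2245 and 1809.5 in control 1–3. All 6 CUMS rats lay above all controls, with differences of 0.20 ± 0.13 (SE) and 0.41 ± 0.13 (limma adjusted p = 0.801 and 0.744).

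Clpx, which unfolds proteins for the mitochondrial protease CLPP, was at 3926, 2683 and 4948 in CUMS 1–3, 6201, 5457 and 4318 in CUMS 4–6, and 3205, 3404 and 3569 in control 1–3. Its difference from control was 0.64 ± 0.20 (SE) in CUMS 4–6 (limma adjusted p = 0.744), and CUMS 2 was the one CUMS rat below all controls. Fkbp4, an HSP90 co-chaperone of steroid receptors, was at 1784, 1526 and 1636 in CUMS 1–3, 1316, 1551 and 1724 in CUMS 4–6, and 1249.8, 1408 and 1139 in control 1–3. The CUMS 1–3 livers lay above all controls, by 0.38 ± 0.13 (SE; limma adjusted p = 0.722).

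Creb3l3, an ER-bound factor of hepatocytes that is cut in the manner of ATF6, was at 5114, 6193 and 6209 in CUMS 1–3, 4019.6, 5058 and 6277 in CUMS 4–6, and 4753, 3079 and 3865 in control 1–3. All CUMS 1–3 livers lay above all controls, by 0.60 ± 0.19 (SE; limma adjusted p = 0.695), and CUMS 4 lay inside the control range. Sars1, the seryl-tRNA synthetase and an ATF4 target, was at 2071, 1564 and 1420.0 in CUMS 1–3, 1162, 1335 and 1459 in CUMS 4–6, and 1024, 1192 and 1338 in control 1–3. The CUMS 1–3 livers again lay above all controls, by 0.50 ± 0.16 (SE; limma adjusted p = 0.722). Hspa1a, an inducible HSP70 with a near-identical copy in Hspa1b, was at 104, 79.8 and 116 in CUMS 1–3, 242, 122 and 134 in CUMS 4–6, and 128, 112 and 123 in control 1–3. Its values are uncertain because the probes can take up both copies, and CUMS 4, one of the rats with a high 3′ to 5′ ratio, was the highest.

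The rule also named Eif2ak2, Cth and 4 further genes. Eif2ak2 (PKR), a kinase that shares its target with PERK, was at 663, 588 and 903 in CUMS 1–3, 877, 667 and 769.7 in CUMS 4–6, and 1514, 1049.6 and 694 in control 1–3, with control 3 inside the CUMS range. The differences from control were −0.55 ± 0.26 (SE) for CUMS 1–3 and −0.43 ± 0.26 for CUMS 4–6 (limma adjusted p = 0.745 and 0.823). Cth, which makes cysteine and is an ATF4 target, was at 16072, 14751 and 13963 in CUMS 1–3, 19787, 16314 and 21219 in CUMS 4–6, and 13948, 17606 and 15172 in control 1–3. All CUMS 1–3 livers lay below all CUMS 4–6 livers, with a difference of −0.35 ± 0.12 (SE; limma adjusted p = 0.9996). The ER oxidase Ero1a, the ER cyclophilin Ppib and the degradation factors Selenos and Ubxn4 differed between the groups by −0.24 to 0.24.

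Further probe sets of the same genes did not always give the same sign. For 12 genes with 17 further probe sets above the filter, the sign of the further set matched the first in 9 of 17 for CUMS 1–3 against control, 11 of 17 for CUMS 4–6 against control, 10 of 17 for all CUMS rats and 8 of 17 for CUMS 1–3 against CUMS 4–6. Hsph1 and Edem1 had the same sign in all their probe sets in the comparisons with control. Dnaja1, Hspb8, Canx and Trib3 each had a further probe set with the opposite sign in both comparisons with control, with differences between −0.28 and 0.11. Hspa9 had a dim further probe set with the opposite sign in each of them (−0.01 and −0.05).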

How the data were processed

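The authors extracted liver RNA with TRIzol, labelled it with a 3′ IVT kit, hybridised it to Affymetrix rat arrays and normalised the scans with MAS 5.0. What they deposited are linear signal intensities, which were brought to the same trimmed mean on every array. RNA amplified from the 3′ end makes signals sensitive to RNA integrity. Signals below 1 (586 values) were set to 1 and log2 was taken. Control probe sets (57) were dropped, as was the dimmest 40% of the others.

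The 3 groups were fitted together in R 4.3.3 with limma 3.58.1 (variance trend, 6 residual degrees of freedom), with Benjamini-Hochberg adjustment over 18625 probe sets. The number of arrays limits the precision. Probe sets with 1 gene symbol in the platform annotation were used (20826), and those with several (436) or none (9780) were not. The fit was tested on simulated data. The members, the gene lists and the comparisons were chosen with earlier results of these data known. Genes given in every rat are the usual readouts of each branch and, in each group, the 2 with the smallest p per comparison; of the other pathway genes, those with the smallest p in each list. The remaining genes named were chosen after their values were seen. The 23 alternatives included quantile normalization, median centring, other filters, array weights, other probe sets, the replicate number as a block and leaving out rats. The labels do not say that the replicate numbers shared by CUMS 1–3 and control pair the rats, so the main fit had no pairing.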

Additional observations from a re-analysis of the deposited data

Results flagged for a closer look

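A rat that stood apart from the others of its condition was found for 2 of the 39 members among the 6 CUMS rats, by the gap to the nearest rat as a share of the whole range of the log2 signals (above 0.625), which chance gives in about 1 in 20 groups. The same was found for 7.01% of all 10403 genes. Creld2, an ER chaperone gene, had a signal of 944.92 in CUMS 2, below the other CUMS rats (1367 to 1661), with a gap of 0.654 of the range. CUMS 2 was the array with the highest 3′ to 5′ ratio of β-actin (5.23), and the part of this in the result was not tested. Xbp1 had a signal of 9871.2 in CUMS 4, above the other CUMS rats (6860.1 to 7682), with a gap of 0.689 of the range. Its β-actin ratio was 4.96. Control 1, with 10776 and a ratio of 3.66, was higher still.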

How the results depend on the processing

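No member was called under any of the alternatives in any comparison, and the lowest adjusted p of a member was 0.515 for CUMS 1–3 against control, 0.521 for CUMS 4–6 against control, 0.373 for all CUMS rats against control and 0.997 for CUMS 1–3 against CUMS 4–6. Members with an unadjusted p under 0.05 (5, 4, 4 and 1) kept their sign in all settings run. They were picked by p in these same arrays, and several settings leave the difference unchanged, so the kept signs are not a test. Over all members, the sign changed in 66 of 866, 58 of 827, 66 of 827 and 65 of 827 values. The number of arrays and the spread between them limit what could be called.

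The number of members at an unadjusted p under 0.05 depended on the setting. The methods' test, modelled on the paper's, also asked for a ratio between the groups of 1.5 or more, or of 0.5 or less. No member had such a ratio in any comparison. The counts of that test were therefore bound to be 0 whatever the p, and they do not show a loss of small p-values. For CUMS 1–3 against control (5) it was 1 with median centring, 3 with only the groups compared, 2 with no variance trend, 2 with the second probe set (of the 12 members that have one) and 0 with the methods' test. With the replicate block, which treats same-numbered rats as pairs (correlations of same-numbered rats 0.00, −0.05 and 0.14), it was 2. For CUMS 4–6 against control (4) it was 2 with quantile normalization, median centring, no filter, the mean of all probe sets and the second probe set (again of 12), 1 with only the groups compared or no variance trend, and 0 with the methods' test. No paired analysis was possible there because CUMS 4–6 and control share no replicate number. For all CUMS rats (4) it was 2 with quantile normalization or array weights, 1 with median centring or no variance trend, and 0 with the methods' test. For CUMS 1–3 against CUMS 4–6 (1) it was 2 with quantile normalization, no filter or only the groups compared, 3 with array weights, and 0 with median centring, no variance trend or the methods' test.

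Leaving out 1 rat gave 0 members (without CUMS 3) to 6 (without control 2) for CUMS 1–3 against control, 1 (without CUMS 6) to 5 for CUMS 4–6 against control, 1 (without CUMS 3) to 7 (without control 2) for all CUMS rats, and 0 to 3 for CUMS 1–3 against CUMS 4–6. Leaving out CUMS 2 and CUMS 4 together, for their 3′ to 5′ ratios, and these with control 3, were chosen after seeing the data. The first gave 3 members for CUMS 1–3 against control and 3 for CUMS 1–3 against CUMS 4–6, and the second gave 3, 7 (CUMS 4–6 against control) and 3.

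Group medians near 0 moved across it. For the cytosolic heat shock genes, CUMS 1–3 minus control was −0.035 without the 3 rats. CUMS 4–6 minus control was −0.125 with array weights, −0.067 with the mean of all probe sets, −0.093 without CUMS 2 and CUMS 4, −0.133 without the 3 rats, and −0.093 to 0.074 with 1 rat left out. All CUMS minus control was −0.093 with array weights, −0.025 with the mean of all probe sets, −0.037 with the second probe set, −0.096 without the 3 rats, and −0.065 to 0.108 with 1 rat left out. CUMS 1–3 minus CUMS 4–6 was 0.103 without CUMS 2 and CUMS 4, with or without control 3, and −0.066 to 0.067 with 1 rat left out. For the ER chaperones, CUMS 1–3 minus control was −0.279 (without CUMS 1) to −0.022 (without control 2), and CUMS 1–3 minus CUMS 4–6 was −0.298 with the second probe set, which only 3 of these genes have, and −0.194 (without CUMS 1) to 0.0011 (without CUMS 3) with 1 rat left out. For ATF4 and its targets, CUMS 1–3 minus control was −0.068 with the mean of all probe sets and −0.068 without the 3 rats, CUMS 4–6 minus control was −0.024 to 0.163 and CUMS 1–3 minus CUMS 4–6 was −0.154 to 0.0090 with 1 rat left out. The cause was not tested.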
